A study of Mus musculus with 9 samples.

Results

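A set of 45 genes of glucose uptake, glycolysis, the pyruvate dehydrogenase step and the tricarboxylic acid (TCA) cycle was followed across the choroid (CH), the retinal pigment epithelium (RPE) and the photoreceptors (PR) of the mouse eye. They were taken by symbol from a fixed list, and all 45 were on the array, with 66 probes, among 31829 gene names in all. The tissue came from female C57BL/6 mice of 6 months (± 2 weeks) according to the labels. The methods name the substrain C57BL/6JOlaHsd, give a lower age and state that each sample was 1 whole eye. The 3 layers were cut from eye sections by laser dissection, with 3 arrays for each layer and 9 arrays in all. The layer's RNA was labelled with Cy5, and a single reference made of RNA from mouse RPE and choroid was labelled with Cy3, on all arrays alike and with no dye swap. No treatment or genotype was compared. Values are log2(Cy5/Cy3), the log2 ratio of the layer to the reference, and are compared between layers for 1 probe at a time.

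Glycolysis splits glucose into pyruvate in the cytosol. Pyruvate is then either reduced to lactate by lactate dehydrogenase or carried into the mitochondrion, where pyruvate dehydrogenase turns it into acetyl-CoA for the TCA cycle. Photoreceptors are known for a high rate of lactate production in the presence of oxygen, and the RPE, which lies between the choroidal blood supply and the photoreceptors, is known to pass glucose on to them. Many steps are served by several isoforms from separate genes, which differ in kinetics and in the tissues that use them.

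Each gene is given by 1 reported probe, the brightest one that was saturated on no array. A gene was called between layers when its fold change (FC) was above 2.5 and its adjusted p-value in the limma fit was below 0.01. Of the 45 reported probes, 43 were well above background in Cy5 on all 9 arrays. The exceptions were Pklr, the liver and red cell pyruvate kinase, on 1 array of each layer, and Pdk4, on 1 of the 3 PR arrays. The array of RPE replicate 2 had 91.8% of its spots well above background in Cy5, against 63.1% to 71.9% on the other arrays, and the counts of called members were the same without it in every comparison.

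The layers were checked with marker genes. All 9 rod and all 6 cone markers were higher in PR than in RPE, and 6 of 7 RPE markers were higher in RPE than in PR. Against the CH, 5 of 7 RPE markers were higher in RPE and all 5 fibroblast markers were higher in CH. The layers were not free of each other's RNA. All 9 rod markers were well above background on every CH and RPE array, with a mean log2 Cy5 signal of 15.67 to 16.27 in CH and 16.28 to 16.74 in RPE, against 18.11 to 18.65 in PR. The RPE markers had a mean of 16.24 to 16.58 in CH, close to the 16.73 to 16.80 of the RPE, and of 13.64 to 13.93 in PR. What part such RNA had in the differences of the metabolic genes was not tested. Fewer cells of a type and less RNA per cell cannot be told apart in tissue RNA.

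The clearest contrast lay between the photoreceptors and the other layers. Higher in RPE than in PR were 6 of the 45 members (13.3%), against a background of 10.8% of all 31829 genes. They were Slc2a1, Pdk4, Ldhb, Suclg2, Pdk2 and Pdk1. Markers of several other cell types moved the same way: called higher in RPE than in PR were 5 of 5 fibroblast markers (median log2 difference 3.92), 4 of 4 pigment cell markers (3.36), 5 of 6 endothelial markers (2.89), 4 of 5 smooth muscle markers (2.23) and 2 of 4 immune cell markers (1.80). Red blood cell (0.86, 1 of 4 called) and skeletal muscle markers (0.44, 1 of 12) moved less. Muller glia (-0.42) and inner retina markers (-0.36) had negative medians. Of these, 2 of 5 and 1 of 8 were called higher in RPE, and 0 and 2 higher in PR. The part of any of these cell types in the calls was not tested. Higher in PR than in RPE were 7 members (15.6%), against a background of 5.22%, namely Ldha, Hk2, Pfkfb2, Pkm2, Pgam1, Eno2 and Hk1. The 7 members higher in PR all belong to glycolysis or to lactate formation. None of the 12 TCA cycle genes was among them, and Suclg2 alone of these was called higher in RPE. At a background of 5.22%, no call among 12 genes is close to the share of all genes. The 3 RPE and 3 PR arrays did not overlap for 37 of the 45 members (82.2%), against 58.7% of all genes. At an adjusted p below 0.05 with no FC minimum, 12 members were higher in RPE (background 25.1%) and 19 were higher in PR (background 25.4%). The median log2 difference of the members, RPE minus PR, was -0.27, against -0.01 over all genes.

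**Figure D1:**
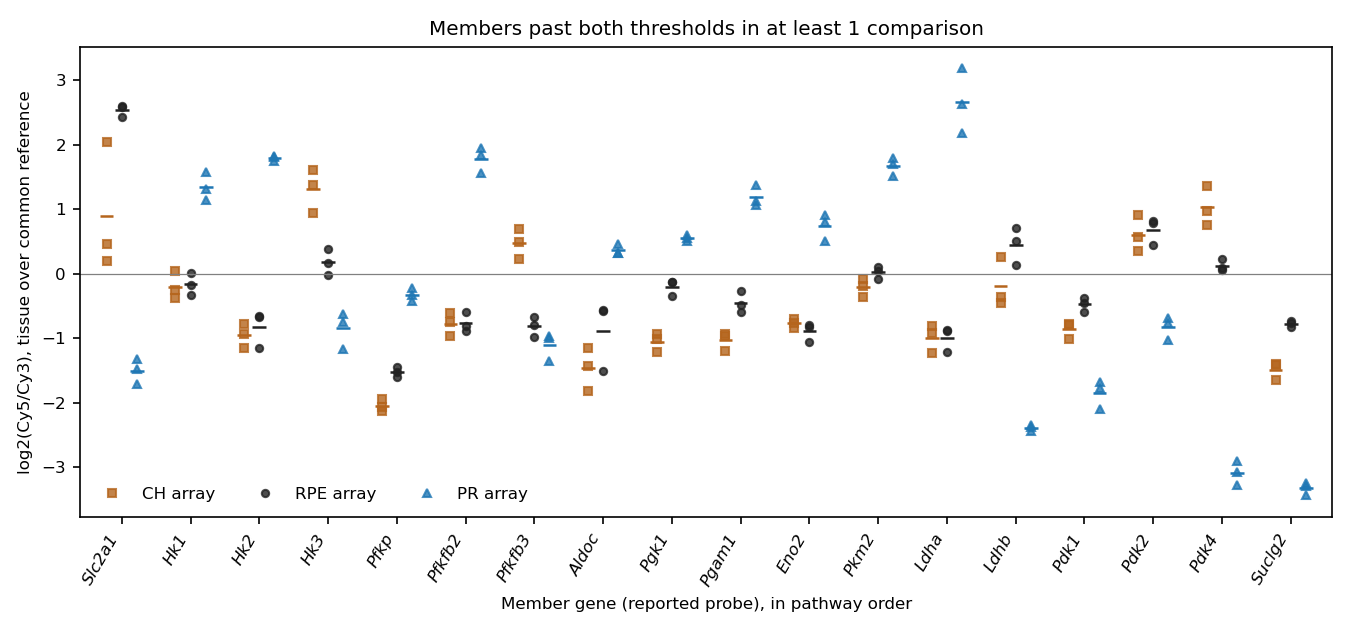
Log2(Cy5/Cy3) of the 18 members that passed both thresholds in at least 1 comparison, for each of the 9 arrays, with CH as squares, RPE as circles, PR as triangles and a line for the mean of each layer. Ldha stands at 2.18 to 3.18 on the PR arrays and near -1 on the others, and Ldhb shows the opposite order, with PR at -2.44 to -2.34.

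The lactate dehydrogenases were called in opposite directions. The enzyme is a tetramer of A subunits, from Ldha, and B subunits, from Ldhb, and the A form is known to favour lactate production while the B form favours the use of lactate. Ldha read 2.63, 2.18 and 3.18 on the PR arrays, -0.89, -1.21 and -0.87 on the RPE arrays and -1.23, -0.82 and -0.92 on the CH arrays. All PR arrays lay far above the rest, and RPE and CH overlapped. The fitted difference RPE minus PR was -3.65 ± 0.23 (SE) on the log2 scale, a 12.6-fold higher ratio in PR (limma, adjusted p = 6.82e-07). Ldhb read -2.34, -2.44 and -2.37 in PR, 0.51, 0.71 and 0.13 in RPE and -0.45, -0.36 and 0.25 in CH. It was 7.11-fold higher in RPE than in PR (log2 2.83 ± 0.20, adjusted p = 1.37e-06) and 4.58-fold higher in CH than in PR (adjusted p = 6.61e-06). Within each array, Ldha minus Ldhb was 5.05 ± 0.47 (SD, n = 3) in PR, -1.44 ± 0.46 in RPE and -0.80 ± 0.36 in CH. The difference of this pair, RPE minus PR, was -6.48, and -5.72 with the mean of all probes of each gene. At the reported probes the log2 Cy3 signal of the reference, RPE minus PR, differed by 1.82 for Ldha and -0.84 for Ldhb. The value of -6.48 includes both shifts, which limits its size.

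The size of the Ldha difference depended on the probe and the channel. Its 2 other probes, which lie further upstream in the gene, gave RPE minus PR differences of -2.45 and -2.56. At the reported probe (mm9 chr7:54110937-54110996, plus strand) the scanned Cy3 signal of the common reference was 17389 to 61894 on the PR arrays, against 103738 to 147079 on the CH and RPE arrays. The same reference RNA was applied to all arrays. At the 2 other probes the mean Cy3 signals of the layers differed by at most 0.31 on the log2 scale. With the Cy5 channel alone the reported probe gave -1.63 (adjusted p = 6.17e-05). The direction was the same by all 3 probes and with Cy5 alone, while the size ranged from -3.65 to -1.63. Among the reported probes of all 45 members, Slc2a1 held the other Cy3 difference of more than 1 on the log2 scale between layers. At the probe of Fh1 that was not reported, Cy3 also differed by more than 1, with 1 CH array at a scanned signal of 56.7.

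The bases before the first listed start of Ldha and of 3 other members that differed between RPE and PR are printed here because these 4 genes carry the contrast in glucose uptake, its trapping and lactate. Each line gives 250 bases, 5′ to 3′ along the gene, from RefSeq (build GRCm38.p6). Capitals mark ACGTG, the core to which hypoxia-inducible factors bind, read on either strand (CACGT on the printed strand is the same motif, and both overlap in CACGTG).
Ldha upstream, chr7:46845554-46845803, plus strand: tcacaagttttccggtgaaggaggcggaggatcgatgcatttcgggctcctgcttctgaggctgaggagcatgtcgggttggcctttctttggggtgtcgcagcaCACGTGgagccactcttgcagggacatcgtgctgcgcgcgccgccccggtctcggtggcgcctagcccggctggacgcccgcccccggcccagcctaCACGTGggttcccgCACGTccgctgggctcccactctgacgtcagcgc
Hk2 upstream, chr6:82774455-82774704, minus strand: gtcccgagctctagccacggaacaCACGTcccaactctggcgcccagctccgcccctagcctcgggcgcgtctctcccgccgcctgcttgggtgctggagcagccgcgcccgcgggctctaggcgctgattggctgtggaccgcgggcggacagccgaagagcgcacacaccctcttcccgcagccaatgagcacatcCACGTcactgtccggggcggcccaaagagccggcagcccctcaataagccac
Slc2a1 upstream, chr4:119108495-119108744, plus strand: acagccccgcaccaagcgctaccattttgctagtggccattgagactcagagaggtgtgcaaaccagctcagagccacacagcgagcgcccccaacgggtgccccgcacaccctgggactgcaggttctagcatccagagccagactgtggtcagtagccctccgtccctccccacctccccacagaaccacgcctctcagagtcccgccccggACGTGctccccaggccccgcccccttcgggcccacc
Ldhb upstream, chr6:142507958-142508207, minus strand: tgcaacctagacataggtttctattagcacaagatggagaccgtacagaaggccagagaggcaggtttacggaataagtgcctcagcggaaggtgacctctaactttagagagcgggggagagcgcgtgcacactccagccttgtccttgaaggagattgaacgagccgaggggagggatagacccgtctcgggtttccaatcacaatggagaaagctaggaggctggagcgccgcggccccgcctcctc

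The Ldha window held 5 matches to ACGTG, counted on both strands, the Hk2 window 2, the Slc2a1 window 1 and the Ldhb window 0. At the most upstream start of each gene, 14 of the 43 members with a listed window (32.6%) held the motif, against 16.5% of 27025 genes. The motif stood in 3 of the 7 members higher in PR (Hk2, Pgam1 and Ldha) and in 2 of the 6 members higher in RPE (Slc2a1 and Pdk2). TAATCC, the core of the photoreceptor factor Crx, stood in none of these 13 windows, and in 6.37% of all genes' windows. Among all members it stood in 4 of 43 (9.30%), namely Pfkp, Pfkfb4, Aldoc and Cs. Of these, Pfkp and Aldoc were called higher in PR than in CH. A match is a matter of letters in this window, and binding was not measured.

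Glucose enters these cells through facilitative transporters. Slc2a1 encodes Glut1, the transporter of the blood-retina barriers. It read 2.60, 2.58 and 2.43 on the RPE arrays, 0.46, 0.19 and 2.04 on the CH arrays and -1.48, -1.71 and -1.31 on the PR arrays. The 3 layers did not overlap, but CH replicate 3 lay near the RPE. The ratio was 16.4-fold higher in RPE than in PR (log2 4.04 ± 0.39, adjusted p = 1.41e-05) and 5.27-fold higher in CH than in PR (adjusted p = 0.000471). The difference RPE minus CH was 1.64 ± 0.39 (adjusted p = 0.0146) and did not pass the threshold. Without CH replicate 3 it was 2.21 (adjusted p = 6.74e-05) and passed it. Within slide 1 it was 1.27 (adjusted p = 0.211) and within slide 2, with 1 array per layer, 2.39. The mean log2 Cy5 signal of the RPE markers was 16.58 on that array and 16.33 and 16.24 on the other CH arrays, and its part in the result was not tested. The single Slc2a1 probe was saturated in Cy5 on 2 RPE arrays and on CH replicate 3, and the Cy5 channel alone gave 1.82 for RPE minus PR (adjusted p = 5.71e-05) and 1.30 for CH minus PR, the latter under the FC threshold. The mean scanned Cy3 signal of the reference at this probe was 34018 on the RPE arrays and 179003 on the PR arrays. Slc2a3, which encodes the neuronal transporter Glut3, read -1.04 to -0.93 on the CH arrays, -0.99 to -0.94 on the RPE arrays and -0.90, -0.35 and -0.83 on the PR arrays. It differed by -0.27 between RPE and PR (adjusted p = 0.132).

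Hexokinases trap glucose by phosphorylation. Hk2, the inducible form, read 1.82, 1.74 and 1.81 in PR, -0.67, -1.15 and -0.65 in RPE and -1.14, -0.93 and -0.77 in CH. It was 6.12-fold higher in PR than in RPE (log2 -2.61 ± 0.15, adjusted p = 3.51e-07). Hk1, the general form, was also higher in PR, by 2.84-fold (adjusted p = 1.74e-05), with PR arrays at 1.15 to 1.57, RPE arrays at -0.33 to 0.01 and CH arrays at -0.38 to 0.04. Its second, dimmer probe gave a difference of -0.94, and with the mean of its 2 probes the FC no longer passed the threshold. Hk1 minus Hk2 was 0.66 ± 0.17 in RPE and -0.45 ± 0.19 in PR. Hk3, a form known from leukocytes, had the reverse order. Its log2 ratios were 1.38, 1.62 and 0.94 in CH, 0.17, -0.02 and 0.39 in RPE and -0.63, -1.16 and -0.75 in PR, with no overlap between layers. It was 4.46-fold higher in CH than in PR (adjusted p = 7.72e-06), and its difference RPE minus CH of -1.13 (adjusted p = 0.00325) was under the FC threshold. Its RPE minus PR difference was 1.03 (2.04-fold, adjusted p = 0.00155), also under the FC threshold. With the slide as a block, where the PR level rests on PR replicate 2 alone, the difference was 1.39. The 4 immune cell markers moved the same way, with a mean log2 Cy5 signal of 12.34 to 12.88 in CH, 11.92 to 12.22 in RPE and 9.98 to 10.11 in PR, and their part in the result was not tested.

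Phosphofructokinase sets the pace of glycolysis, and its activator fructose 2,6-bisphosphate is made and removed by the Pfkfb enzymes. Pfkfb2, whose enzyme was first known from heart, read 1.95, 1.84 and 1.56 in PR, -0.58, -0.89 and -0.80 in RPE and -0.97, -0.74 and -0.61 in CH. It was 5.81-fold higher in PR than in RPE (log2 -2.54 ± 0.14, adjusted p = 2.83e-07). Pfkfb3, the inducible form, was instead highest in CH, at 0.50, 0.69 and 0.23, against -0.98, -0.79 and -0.67 in RPE and -1.35 to -0.96 in PR. Its CH minus PR difference was 1.58 ± 0.15 (2.98-fold, adjusted p = 1.17e-05). Its RPE minus CH difference of -1.28 (2.43-fold, adjusted p = 0.000539) lay just under the FC threshold and passed it with median centring, at -1.64, and without CH replicate 3 or RPE replicate 3. With the mean of its 2 probes, of which the second was well above background on 1 array, the CH minus PR difference was 0.76 and was not called. Pfkfb2 minus Pfkfb3 was 2.88 ± 0.34 in PR, 0.05 ± 0.30 in RPE and -1.25 ± 0.35 in CH, 3 levels without overlap. Pfkfb1, the liver form, differed by -1.31 (2.48-fold, adjusted p = 1.58e-05) between RPE and PR, just under the FC threshold, and was called under 8 alternatives, up to 3.27-fold with the Feature Extraction log ratio. Pfkfb4 differed by -0.35. Of the phosphofructokinases themselves, the liver form Pfkl (0.13) and the muscle form Pfkm (0.79) were not called between RPE and PR. Pfkl overlapped between all layers, at -0.30 to 0.07 in CH, -0.34 to 0.23 in RPE and -0.41 to 0.12 in PR. Pfkm lay at -0.52 to -0.40 in CH, -0.14 to 0.03 in RPE and at or below -0.67 in PR, with no overlap. Pfkp, the platelet form, was 3.30-fold higher in PR than in CH (adjusted p = 2.42e-07), with an RPE minus PR difference of -1.20 (adjusted p = 3.91e-06) that was called under 4 alternatives, at -1.56 to -1.37. It read -0.32, -0.42 and -0.22 in PR, -1.52, -1.59 and -1.44 in RPE and -1.94, -2.13 and -2.07 in CH, a clean order of PR, RPE and CH. Its second probe, nearer the end of the gene, gave 0.05 for RPE minus PR and -0.14 for CH minus PR, and the mean of both was not called.

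The remaining steps down to phosphoenolpyruvate were 11 genes, of which Pgam1 and Eno2 were higher in PR than in RPE and none was higher in RPE. Their median RPE minus PR difference was -0.70, against -0.01 over all genes. Pgam1, a phosphoglycerate mutase, read 1.12, 1.07 and 1.37 in PR, -0.27, -0.59 and -0.48 in RPE and -1.19, -0.97 and -0.93 in CH. It was 3.11-fold higher in PR than in RPE (adjusted p = 2.78e-06) and 4.65-fold higher than in CH (adjusted p = 2.67e-07). Eno2, the neuronal enolase, was 3.11-fold higher in PR than in RPE (adjusted p = 2.5e-06), with PR arrays at 0.51 to 0.91, RPE arrays at -1.06 to -0.80 and CH arrays at -0.85 to -0.70. The general enolase Eno1 read 0.78, 0.41 and 1.17 in PR and 0.30, 0.19 and 0.30 in RPE, with CH at -0.47 to 0.17, a difference of -0.52 (adjusted p = 0.0555). Eno3, the muscle enolase, differed by -0.13 (adjusted p = 0.434). Gpi1, which isomerises glucose 6-phosphate, differed by -0.54 (adjusted p = 0.00645), Tpi1, the triosephosphate isomerase, by -0.70 (adjusted p = 0.00249), Aldoa, the muscle aldolase, by -0.30 and Pgam2, the muscle mutase, by -0.11, all under the FC threshold.

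Of these 11 genes, Aldoc and Pgk1 were called at their reported probes higher in PR than in CH but not in PR than in RPE. The second Tpi1 probe was also called higher in PR than in CH, with a CH minus PR difference of -1.37. Aldoc, the aldolase of neural tissue, read 0.33, 0.32 and 0.46 in PR and -1.43, -1.81 and -1.14 in CH, a 3.56-fold difference (adjusted p = 0.000143). Aldoa read 1.04 to 1.36 in PR and -0.03 to 0.39 in CH. For Aldoc, RPE replicate 2 was at -1.50 and the other RPE arrays at -0.56 and -0.58. Its RPE minus PR difference was -1.25 (2.38-fold, adjusted p = 0.00205), and it was called without RPE replicate 1 (-1.41) or RPE replicate 3 (-1.40). With the slide as a block, where the PR level rests on PR replicate 2 alone, the difference was -1.69. Pgk1, the phosphoglycerate kinase that yields ATP, was 3.05-fold higher in PR than in CH (adjusted p = 7.37e-07), and its 3 layers stood apart with RPE in between, at -0.93 to -1.22 in CH, -0.12 to -0.35 in RPE and 0.52 to 0.60 in PR. Gapdh, often used as a reference gene, was 1.73-fold higher in PR than in RPE at its reported probe (adjusted p = 0.000105), and its 7 probes gave RPE minus PR differences of -1.06 to -0.60. For RPE minus CH the same 7 probes ran from 0.01 to 0.92, and for CH minus PR from -1.98 to -0.81. With the mean of all Gapdh probes the CH minus PR difference was -1.39 and was called, unlike at the reported probe. One of the 7 probes lies on mm9 chromosome 8, away from the others on chromosome 6. Gapdh and Ldha have many processed copies in the mouse genome, and whether the probes bound such copies was not tested.

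**Figure D2:**
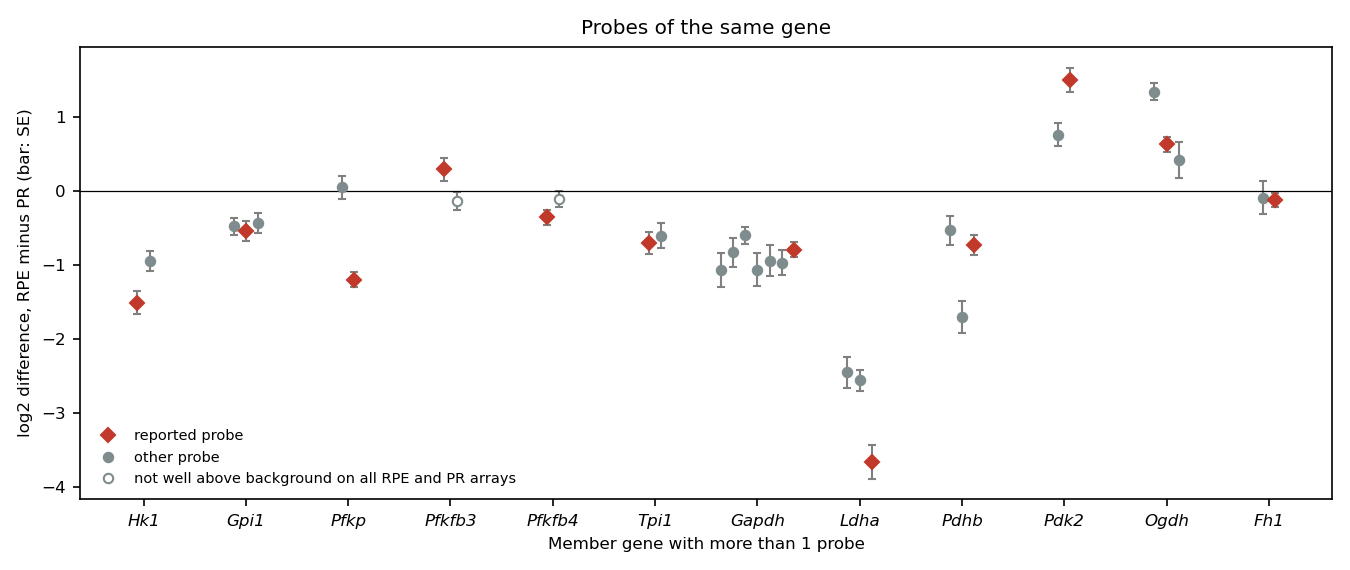
Log2 difference RPE minus PR (bars, SE) of each probe of the 12 members with more than 1 probe. Diamonds are the reported probes and open circles were not well above background on all RPE and PR arrays. The probes of Ldha all lie below -2, while those of Pfkp (-1.20 and 0.05), Pdhb (-1.70 to -0.53) and Ogdh (0.42 to 1.34) differ among themselves.

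Pyruvate kinase makes pyruvate and ATP. Pkm2, now named Pkm, read 1.79, 1.71 and 1.52 in PR, 0.11, 0.04 and -0.08 in RPE and -0.37, -0.18 and -0.08 in CH. It was 3.13-fold higher in PR than in RPE (log2 -1.65 ± 0.11, adjusted p = 1.2e-06) and 3.69-fold higher than in CH (adjusted p = 3.76e-07). Its single probe was not assigned to the M1 or M2 splice form here. With the Cy5 channel alone the RPE minus PR difference was -1.28, under the FC threshold, as were Hk1 (-1.13) and Pgam1 (-0.93). In CH minus PR the same channel put Hk1 (-1.07), Pgam1 (-1.28) and Aldoc (-1.18) under it. Pklr differed by -0.49 between RPE and PR.

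The pyruvate dehydrogenase kinases switch the entry into the TCA cycle off by phosphorylating pyruvate dehydrogenase. Pdk4, known to be induced when fat is burned, read -2.90, -3.27 and -3.08 on the PR arrays, of which 1 was well above background, and 0.06, 0.23 and 0.08 in RPE and 0.76, 1.36 and 0.97 in CH. Its layers did not overlap. It was 9.23-fold higher in RPE than in PR (adjusted p = 1.4e-07) and 17.3-fold higher in CH than in PR (adjusted p = 2.1e-08). Pdk2 was 2.83-fold higher in RPE than in PR (adjusted p = 3.54e-05), with PR at -1.02 to -0.69, RPE at 0.44 to 0.81 and CH at 0.35 to 0.91, and its second probe gave a log2 difference of 0.76. With the mean of both probes it was 1.13 and with the Feature Extraction log ratio 1.21, both under the FC threshold. With that log ratio the CH minus PR difference of Pdk2 was 1.06, and without CH replicate 3 it was 1.28, neither of them called. Pdk1 read -1.68, -2.10 and -1.77 in PR, -0.38, -0.59 and -0.45 in RPE and -0.78, -1.01 and -0.80 in CH. It was 2.60-fold higher in RPE than in PR (adjusted p = 1.09e-05), and without PR replicate 2 the log2 difference was 1.26 and no longer passed the FC threshold. The Pdk1 call was also lost with the Feature Extraction log ratio (1.11), median centring (1.21), Cy5 alone (1.12) and the authors' series table (1.11). Pdk3 went another way. It read 0.39, 0.41 and 0.39 in PR, 0.32, 0.34 and -0.04 in RPE and -0.54, -0.52 and -0.38 in CH, so that PR lay just above RPE (difference -0.19, adjusted p = 0.202) and well above CH (adjusted p = 9.7e-05, 1.84-fold). Within arrays, Pdk1 minus Pdk3 was -0.68 ± 0.26 in RPE and -2.25 ± 0.23 in PR. The enzyme's own subunits were not called. Pdha1 differed by 0.33 (adjusted p = 0.109) and Pdhb by -0.73 (adjusted p = 0.00122) between RPE and PR. A further Pdhb probe, listed under another accession, gave -1.70.

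Of the 12 TCA cycle genes, Suclg2 alone was called between RPE and PR, and their median difference was 0.24. Succinate-CoA ligase couples a shared alpha subunit (Suclg1) to a beta subunit that makes either ATP (Sucla2) or GTP (Suclg2). Suclg2 read -3.24, -3.43 and -3.28 in PR, -0.76, -0.82 and -0.74 in RPE and -1.42, -1.64 and -1.39 in CH. It was 5.84-fold higher in RPE than in PR (log2 2.54 ± 0.10, adjusted p = 3.65e-08) and 3.57-fold higher in CH than in PR (adjusted p = 1.93e-07). Sucla2 read -0.63 to -0.52 in PR, -0.38 to 0.11 in RPE and -1.03 to -0.88 in CH. Sucla2 differed by 0.44 and Suclg1 by 0.65 between RPE and PR, both under the FC threshold. Sucla2 minus Suclg2 was 2.76 ± 0.13 in PR, 0.66 ± 0.29 in RPE and 0.55 ± 0.05 in CH. Citrate synthase (Cs, 0.19), fumarase (Fh1, -0.11) and Dlst (0.02), of the 2-oxoglutarate dehydrogenase complex, differed little between RPE and PR. The NAD-dependent isocitrate dehydrogenase subunits lay between -0.33 (Idh3a) and 0.28 (Idh3g), and the malate dehydrogenases at 0.34 (Mdh1) and -0.52 (Mdh2). For Ogdh 1 of 3 probes passed the FC threshold, with 1.34 against 0.63 at the reported probe close by.

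**Figure D3:**
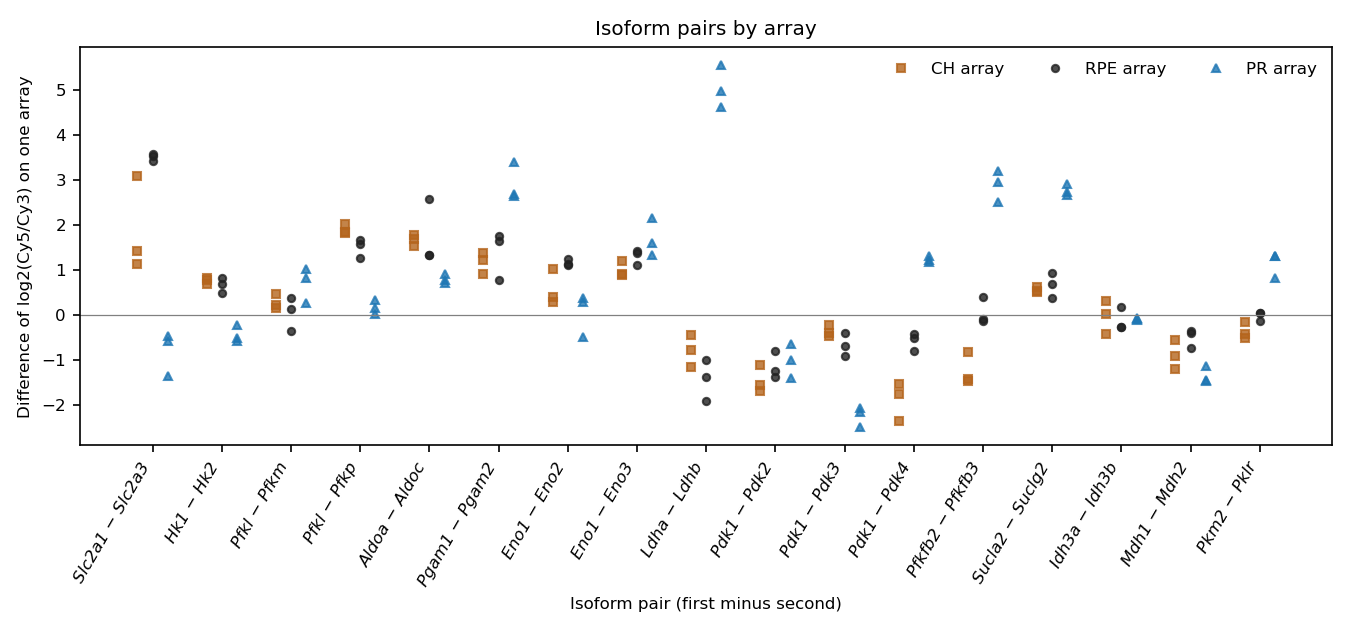
Difference of log2(Cy5/Cy3) between the 2 genes of each of 17 isoform pairs, for every array, with CH as squares, RPE as circles and PR as triangles. The PR arrays stand apart for Ldha minus Ldhb (4.62 to 5.55), Pfkfb2 minus Pfkfb3 (2.51 to 3.19) and Sucla2 minus Suclg2 (2.66 to 2.91).

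Differences between isoforms within 1 array do not depend on the overall scaling of that array. Of the 17 pairs, 13 had RPE and PR arrays that did not overlap, 12 had CH and PR arrays that did not overlap and 6 had RPE and CH arrays that did not overlap. The last count was 12 without RPE replicate 3. For single genes the arrays did not overlap in 58.7%, 62.4% and 39.0% of all genes in these comparisons. Each such pair reached an exact two-sided permutation p of 0.1, the smallest that 3 arrays against 3 can give, or 0.131, 0.142 and 0.283 after Benjamini-Hochberg adjustment over the 17 pairs. Between RPE and PR, Pfkfb2 minus Pfkfb3 differed by -2.83 and Sucla2 minus Suclg2 by -2.11. Slc2a1 minus Slc2a3 differed by 4.31, a value that rests on the Slc2a1 probe with saturated arrays and a shifted Cy3 signal, for which Cy5 alone gave 1.82. The pairs Idh3a and Idh3b (-0.03), Pdk1 and Pdk2 (-0.12), Eno1 and Eno3 (-0.39) and Pfkl and Pfkm (-0.66) had overlapping arrays.

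Between CH and PR, which share the PR arrays with the comparison above, 7 members were higher in CH (15.6%, background 12.7%) and 10 were higher in PR (22.2%, background 6.09%). The 7 higher in CH were Pdk4, Slc2a1, Ldhb, Hk3, Suclg2, Pfkfb3 and Pdk2. At an adjusted p below 0.05 with no FC minimum the counts were 12 (background 26.0%) and 25 (background 27.7%). The arrays did not overlap for 40 of 45 members (88.9%, background 62.4%), and the median difference was -0.48, against -0.05 over all genes. The 10 higher in PR were Ldha, Hk2, Pfkfb2, Pgam1, Pkm2, Aldoc, Pfkp, Pgk1, Hk1 and Eno2.

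Between RPE and CH none of the 45 members passed both thresholds in limma in either direction. Of all genes, 0.185% were higher in RPE and 1.74% were higher in CH, so no call among 45 genes is close to the share of all genes. The RPE and CH arrays did not overlap for 25 of 45 members (55.6%, background 39.0%). At an unadjusted p below 0.05 in limma, 20 members were higher in RPE and 4 in CH, and the share of all genes at that cut was not computed. At an adjusted p below 0.05 with no FC minimum, 16 members were higher in RPE (35.6%, background 10.3%) and 4 in CH (8.89%, background 12.1%). The median difference of the members was 0.23, against 0.03 over all genes, and that of the 12 TCA cycle genes was 0.55. The rod markers had a median RPE minus CH difference of 0.55 and the cone markers of 0.42, with none called, and that of the RPE markers was 1.60. The TCA cycle genes were led by Suclg1 at 1.01 ± 0.12 (2.01-fold, adjusted p = 0.000618), with RPE arrays at -0.25 to 0.06 and CH arrays at -1.29 to -0.88. Mdh1 followed at 0.86 (adjusted p = 0.0203), Sucla2 at 0.82 (adjusted p = 0.00173), Idh3b at 0.72 (adjusted p = 0.00696) and Suclg2 at 0.71 (adjusted p = 0.00116). Idh3g, by contrast, differed by -0.01. The 4 members higher in CH were Pfkfb3, Hk3, Pdk4 (-0.91, adjusted p = 0.00315) and Pfkfb4 (-0.71, adjusted p = 0.00137). All 5 fibroblast markers and 2 of 4 pigment cell markers were called higher in CH than in RPE. So were 2 of 5 smooth muscle and 1 of 4 immune cell markers. The smooth muscle list had a mean log2 Cy5 signal of 13.07 to 13.82 in CH, against 11.94 to 12.59 in RPE. None of the 6 endothelial markers was called in either direction (median RPE minus CH -0.005). Their mean log2 Cy5 signal was 12.98 to 13.70 in CH and 13.24 to 13.50 in RPE. What part the RNA of any of these cell types had in the differences was not tested.

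**Figure D4:**
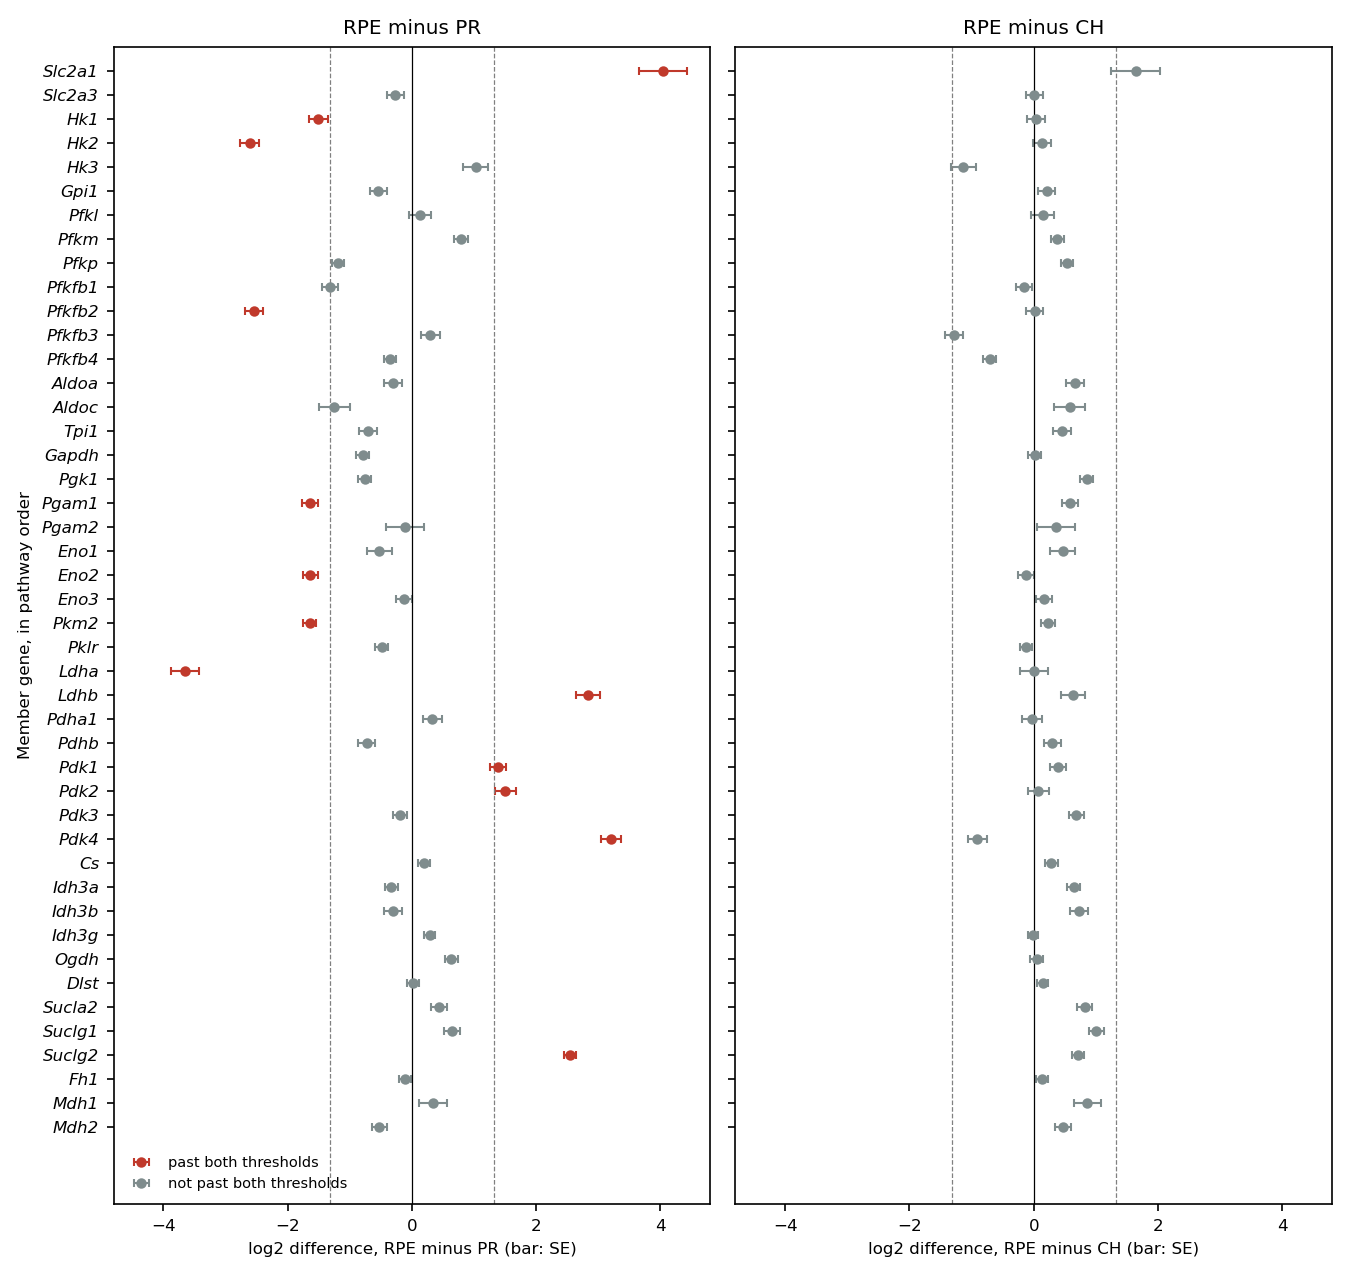
Log2 difference of all 45 members (points, with SE bars), RPE minus PR on the left and RPE minus CH on the right, in pathway order, with dashed lines at an FC of 2.5. On the left 13 members (red) passed both thresholds, from Ldha at -3.65 to Slc2a1 at 4.04, and on the right none did.

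The arrays lay on 3 slides, and slide 2 held 1 array of each layer. A slide was also 1 scan. Within slide 2 all 13 members called between RPE and PR had the same direction and differed by more than 2.5-fold, and of the 17 called between CH and PR all had the same direction and 16 differed by more than 2.5-fold. Within slide 1, which held 2 CH and 2 RPE arrays, no member was called between RPE and CH, and 42 of 45 had the same direction as over all arrays. The arrays of each slide are among those of the main fit, so agreement within a slide is not independent of the calls. The other PR arrays were alone on slide 3.

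The wider pathway was followed with 45 further genes, chosen with earlier results known, of which 44 were found on the array. Higher in RPE than in PR were 9 of them (20.5%, background 10.8%), and 1 was higher in PR (2.27%, background 5.22%). Slc2a4, the insulin-responsive transporter Glut4, read 1.40 to 1.66 in RPE, 1.63 to 1.83 in CH and -2.88 to -2.25 in PR, a 16.3-fold difference between RPE and PR (adjusted p = 3.76e-08). Hkdc1, a hexokinase-like gene, was the 1 gene of this list called between RPE and CH. It read 0.86, 1.05 and 0.92 in RPE, -0.60, -0.61 and 0.05 in CH and -1.94, -1.09 and -1.74 in PR (2.52-fold over CH, adjusted p = 0.00331, and 5.80-fold over PR, adjusted p = 9.82e-06).

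Around pyruvate, Pcx, the pyruvate carboxylase, was 7.08-fold higher in RPE than in PR, Mpc1 (Brp44l on the array), part of the mitochondrial pyruvate carrier, 3.81-fold, and Ldhd, the D-lactate dehydrogenase, 4.36-fold. Idh2, the mitochondrial isocitrate dehydrogenase, was 6.02-fold higher in RPE than in PR (adjusted p = 8.41e-08) and the mitochondrial malic enzyme Me3 15.1-fold (adjusted p = 3.7e-08). Me2, the malic enzyme that uses mainly NAD, was instead 2.99-fold higher in PR (adjusted p = 2.1e-07), with PR arrays at 1.14 to 1.25 and RPE arrays at -0.41 to -0.35. Tkt and Taldo1, of the non-oxidative pentose phosphate pathway, were 3.36-fold and 3.85-fold higher in RPE than in PR. Against the CH, 6 genes of this list were higher in CH than in PR (13.6%, background 12.7%) and 2 were higher in PR (4.55%, background 6.09%). The latter were Me2 and Dld, the dihydrolipoyl dehydrogenase shared by the pyruvate and 2-oxoglutarate complexes, at 2.66-fold (adjusted p = 1.53e-05).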

How the data were processed

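The authors deposited scanner output of 9 dual-colour arrays from Agilent Feature Extraction 9.5.3.1. Spot brightness and local background in these deposited files are intensity readings. The deposited files also give Agilent's own log10 ratio, and a table by the authors gives log2 Cy5 signals. Both served as alternatives only. The thresholds were those of the study's methods.

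Normexp (offset 50) removed background, and loess normalized each array with control spots at weight 0. Between 228 and 586 spots per array that the scanner software marked as outliers were dropped. Spots of the same probe were then averaged, leaving 39429 probes. Layer means were fitted in limma 3.58.1 (R 4.3.3), with Benjamini-Hochberg adjustment over the whole probe set. Shares of all genes use 1 probe per gene, chosen by the same rule as for the members. Where all probes were saturated on some array, the probe saturated on the fewest was taken. Isoform pairs were compared by exact permutation tests in scipy 1.17.1, with Python 3.11.15. The fit recovered known differences in simulated data with independent noise. Those differences were larger than many called here. Slide, saturation and reference shifts were not simulated, so the simulation cannot speak to them. Cy5 levels of marker lists were taken after loess and Aquantile normalization. Probe positions are those of the files (mm9), and no exon or UTR is named because no annotation of mm9 was used. Promoter letters and their positions are on GRCm38.p6.

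All members entered the counts and medians. Array values are given for called members and most of their isoform partners, and genes of the wider list are named where called. The members and lists were chosen with earlier results of these data known. Each sample was 1 whole eye by the study's methods, and whether the 3 eyes of a layer came from separate mice is not given in the sources used here, so p-values measure the spread between these samples. Their number limits the precision of each value. Alternatives covered background, normalization, channel, slide, replicate number, probe choice, dim and marked spots, thresholds, the variance model and each array left out. The values within slides were chosen after seeing the data.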

Additional observations from a re-analysis of the deposited data

How the results depend on the processing

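Of the 30 differences called over the 3 comparisons, 18 passed both thresholds under every alternative run, and of 659 recomputed values 630 stayed on the same side of the thresholds, 29 fell under them and 0 turned direction. Leaving out 1 array gave 0 to 1 members higher in RPE than CH, 0 to 1 higher in CH than RPE, 5 to 6 higher in RPE than PR, 7 to 9 higher in PR than RPE, 6 to 7 higher in CH than PR and 10 to 10 higher in PR than CH. It gave 6 to 12 isoform pairs not overlapping between RPE and CH, the 12 without RPE replicate 3, 13 to 15 between RPE and PR and 12 to 15 between CH and PR. The member gained between RPE and CH was Slc2a1 without CH replicate 3, and Pfkfb3 in the other direction without CH replicate 3 or RPE replicate 3. Median centring gave 1 member higher in CH than RPE, Pfkfb3. With an FC above 2, 1 member was higher in RPE than CH and 2 were higher in CH. With an FC above 1.5 and an adjusted p below 0.05, 11 were higher in RPE than CH, 4 in CH than RPE, 10 in RPE than PR, 14 in PR than RPE and 21 in PR than CH. With no FC minimum the counts were 16, 4, 12, 19, 12 (CH over PR) and 25 (PR over CH). These thresholds are looser by construction. At an FC above 2 or above 1.5 the share of all genes was not computed, so those counts have no background beside them. The cause of the other shifts was not tested. The correlation of deviations between same-numbered arrays ran from -0.078 to 0.286, and between differently numbered arrays from -0.312 to 0.246. The arrays of replicate 2 all lay on slide 2, so number and slide cannot be told apart there. RPE and PR replicate 3 reached 0.285 on different slides. Whether replicate numbers pair the samples cannot be told from these values. The replicate block kept all 30 calls, with 6 members higher in RPE than PR and 7 higher in PR than RPE. PR replicates 1 and 3 were alone on slide 3. With the slide as a block, every difference from PR therefore rested on PR replicate 2 alone. Between RPE and PR that fit gave 1.39 for Hk3 and -1.69 for Aldoc, and Slc2a1 between CH and PR did not pass in it. The counts of recomputed values above include this fit. The 2 saturated or reference-shifted probes, Slc2a1 and the reported Ldha probe, limit their fold changes, and the Ldhb probe had a smaller Cy3 shift.

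Means of all probes moved Ldha minus Ldhb between RPE and PR to -5.72, Hk1 minus Hk2 to 1.39, Pfkl minus Pfkp to 0.71 and Pdk1 minus Pdk2 to 0.25. Median centring moved Eno1 minus Eno2 to 1.52, Eno1 minus Eno3 to 0.01, Pdk1 minus Pdk4 to -2.02 and Pkm2 minus Pklr to -1.43, and the Feature Extraction log ratio moved the last 2 to -2.82 and -0.94. The cause was not tested.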
